A study of Mus musculus with 30 samples.

Results

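The cerebral cortex of mice labelled Brapflox/floxEmx1Cre was compared directly with that of mice labelled Brapflox/floxThy1Cre, both at 3 months of age and both labelled with a strong phenotype. The 11 libraries (6 Emx1-Cre and 5 Thy1-Cre, labelled as biological replicates) were taken by genotype and age from the 30 of a bulk sequencing study of polyadenylated RNA, and all genes of the table entered. Both groups carried 2 floxed alleles of Brap and a Cre driver and were untreated, so neither is a control. The 4 control libraries of the same age, labelled Brapflox/wt Cre-, lacked Cre and had 1 floxed allele, and they are given beside the results as the background. The RNA came from whole cortex, so each value mixes cells that the driver reaches with cells that it does not. Xist and Y-linked counts showed 3 females and 3 males among the Emx1-Cre libraries and 5 females among the Thy1-Cre libraries, so the drivers also differed in sex, with 2 females and 2 males among the controls.

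Brap encodes an E3 ubiquitin ligase, also named IMP, that binds BRCA1 and holds back the passage of signals from RAS to the MAP kinases. The Emx1 driver is known to act in progenitors of the dorsal forebrain, which give rise to cortical glutamatergic neurons, astrocytes and oligodendrocytes, whereas Thy1 transgenes act mainly in projection neurons after birth. Endothelial cells, microglia and most interneurons of the cortex arise outside the Emx1 lineage. In bulk tissue a lower level of a transcript can come from fewer cells of a type or from less RNA per cell, and these cannot be told apart.

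The deposited estimated counts summed to between 21496192 and 28720055 per library in the 11 libraries. Levels are given as CPM (counts scaled to a common library size, with TMM factors), and differences as the log2 fold change of Emx1-Cre minus Thy1-Cre ± its standard error (SE), so that a positive value means higher with Emx1-Cre. Adjusted p-values are Benjamini-Hochberg values over all genes tested from edgeR's quasi-likelihood test unless another tool is named, and they measure only the spread between these libraries. The libraries of both groups differed more among themselves than the controls did, with a biological coefficient of variation of 36.0% for Emx1-Cre and 32.6% for Thy1-Cre against 21.9% for the controls. Markers of cortical glutamatergic neurons had a mean log2 CPM of 6.30 to 7.37 with Emx1-Cre, 6.80 to 7.24 with Thy1-Cre and 7.11 to 7.23 in controls. Markers of neighbouring tissue varied between libraries, with a mean log2 CPM of 4.43 to 5.51 against 5.20 to 5.88 for 13 striatal genes and 0.85 to 2.26 against 0.71 to 3.14 for 12 genes of the choroid plexus and ependyma. Their part in the results was not tested.

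The first principal component of the 11 libraries held 30.3% of the variance and the second 19.2%, and the groups overlapped on both. On the first the Thy1-Cre libraries reached from -1.55 to 58.6 and the Emx1-Cre libraries from -77.7 to 21.3. Replicates 1 and 2 of Emx1-Cre and replicates 1, 4 and 5 of Thy1-Cre had the highest values of the interferon-stimulated list in their groups, at a mean log2 CPM of 5.76, 2.70, 2.37, 4.27 and 3.47, while the remaining libraries lay between 1.00 and 1.98 and the controls between 0.53 and 1.23. Replicate 6 of Emx1-Cre and replicate 2 of Thy1-Cre had the lowest values of the reactive astrocyte list, 3.02 and 2.59, against 4.61 to 6.03 in the other deletion libraries and 1.59 to 2.02 in the controls.

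**Figure D1:**
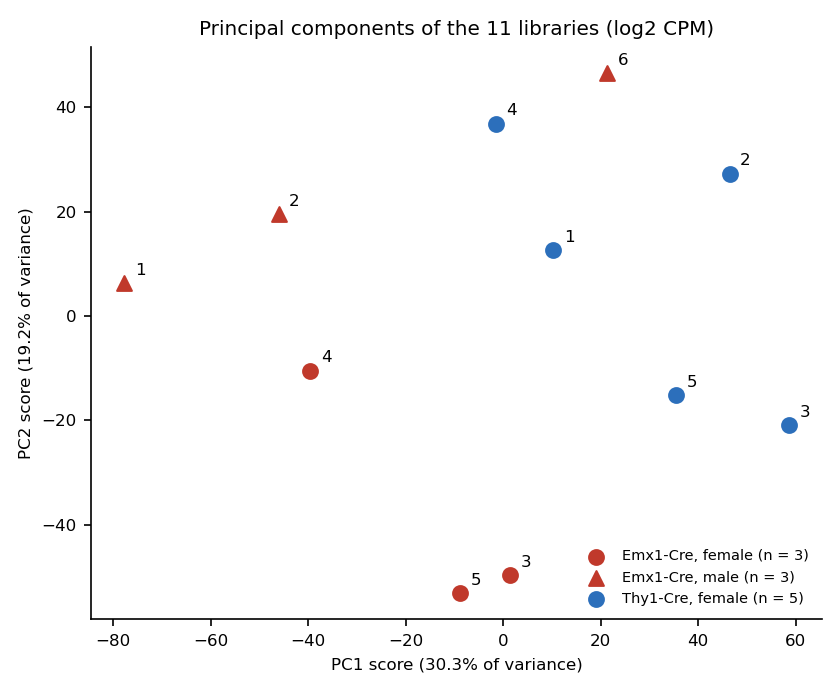
Scores of the 11 libraries on the first (x axis) and second (y axis) principal component of log2 CPM, numbered by replicate, with colour for the driver and shape for the sex read from the counts. The Thy1-Cre libraries lie towards the right of the first component, from -1.55 to 58.6, and overlap the Emx1-Cre libraries, which reach 21.3.

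Brap itself stood at 68.5 to 114 CPM (median 101) with Emx1-Cre and at 74.4, 86.5, 90.4, 71.7 and 80.5 CPM with Thy1-Cre. The ranges overlapped, and the difference of 0.25 ± 0.14 did not pass edgeR's quasi-likelihood test (Benjamini-Hochberg adjusted p = 0.336). All 11 libraries lay above the 4 controls, at 66.5, 59.2, 58.4 and 62.5 CPM. The targeted gene was therefore not lower in the libraries labelled with either driver, and since the sources used here do not name the floxed exons, the counts of the whole gene cannot show whether it was deleted. The driver genes did not differ past the test either. Emx1, a homeobox gene of the dorsal forebrain, was at 13.5 ± 4.68 CPM (SD, n = 6) against 16.2 ± 4.69 CPM (n = 5; -0.25 ± 0.26, adjusted p = 0.597 by edgeR). The neuronal surface glycoprotein Thy1 was at 447 ± 76.5 CPM (n = 6) against 536 ± 111 CPM (n = 5; -0.26 ± 0.16, adjusted p = 0.364 by edgeR). Of the genes tested within 2 Mb of Emx1 (61), Thy1 (68) and Brap (71), 0 were called by edgeR (0.146% of all genes). Around each, 15 had an unadjusted p under 0.05 (20.1% of all genes).

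Between the drivers 24 of 16407 genes (0.146%) passed edgeR's quasi-likelihood test at an adjusted p under 0.05, of which 13 were higher with Emx1-Cre (0.0792%) and 11 lower (0.067%). The ranges of the groups did not overlap for any of the 24, against 421 of all tested genes (2.57%; 236, or 1.44%, higher and 185, or 1.13%, lower), and none belonged to the sex-linked list. An unadjusted p under 0.05 was reached by 3299 genes (20.1%), 1748 higher (10.7%) and 1551 lower (9.45%). The number called varied with the fit. On the same libraries DESeq2 called 557 genes higher (3.39%) and 355 lower (2.16%; 5.56% in both directions), and limma voom with sample quality weights 318 higher (1.94%) and 365 lower (2.22%; 4.16% in both). With the spread shared over all 30 libraries edgeR called 1404 higher (7.89%) and 1432 lower (8.05%). Leaving out replicate 6 of Emx1-Cre moved the count most among single libraries: without it edgeR called 705 higher (4.33%) and 727 lower (4.47%; 8.8% in both), and without any other library 2 to 5 higher and 1 to 9 lower. In female libraries alone (3 against 5) it called 368 higher (2.19%) and 406 lower (2.42%), and with sex as a covariate 13 higher (0.0792%) and 15 lower (0.0914%). All 24 genes kept their direction in each of these fits, DESeq2 and voom each called all 24, 23 were called in females alone and 9 with sex as a covariate. Over all 30 libraries edgeR called 22 of them, all but Eno1b and Amd2. Rpl29, Gm43305 and Aplnr were called in every fit that tested them, and only these 3 kept their call whichever single library was left out. Of 11 such fits, Robo3, Gcnt4, Amotl2 and Gdpd3 were called in 3. Slc1a5, H2bu2, Patz1, Galnt16, Slc2a6, Eif3j2, Oscar, Gm26673, Gm16244, 2810001G20Rik and Hsp90b1 were called in 1, the fit without replicate 6 of Emx1-Cre. A stricter filter (1 CPM in 5 libraries) kept 10 of the 24.

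**Figure D2:**
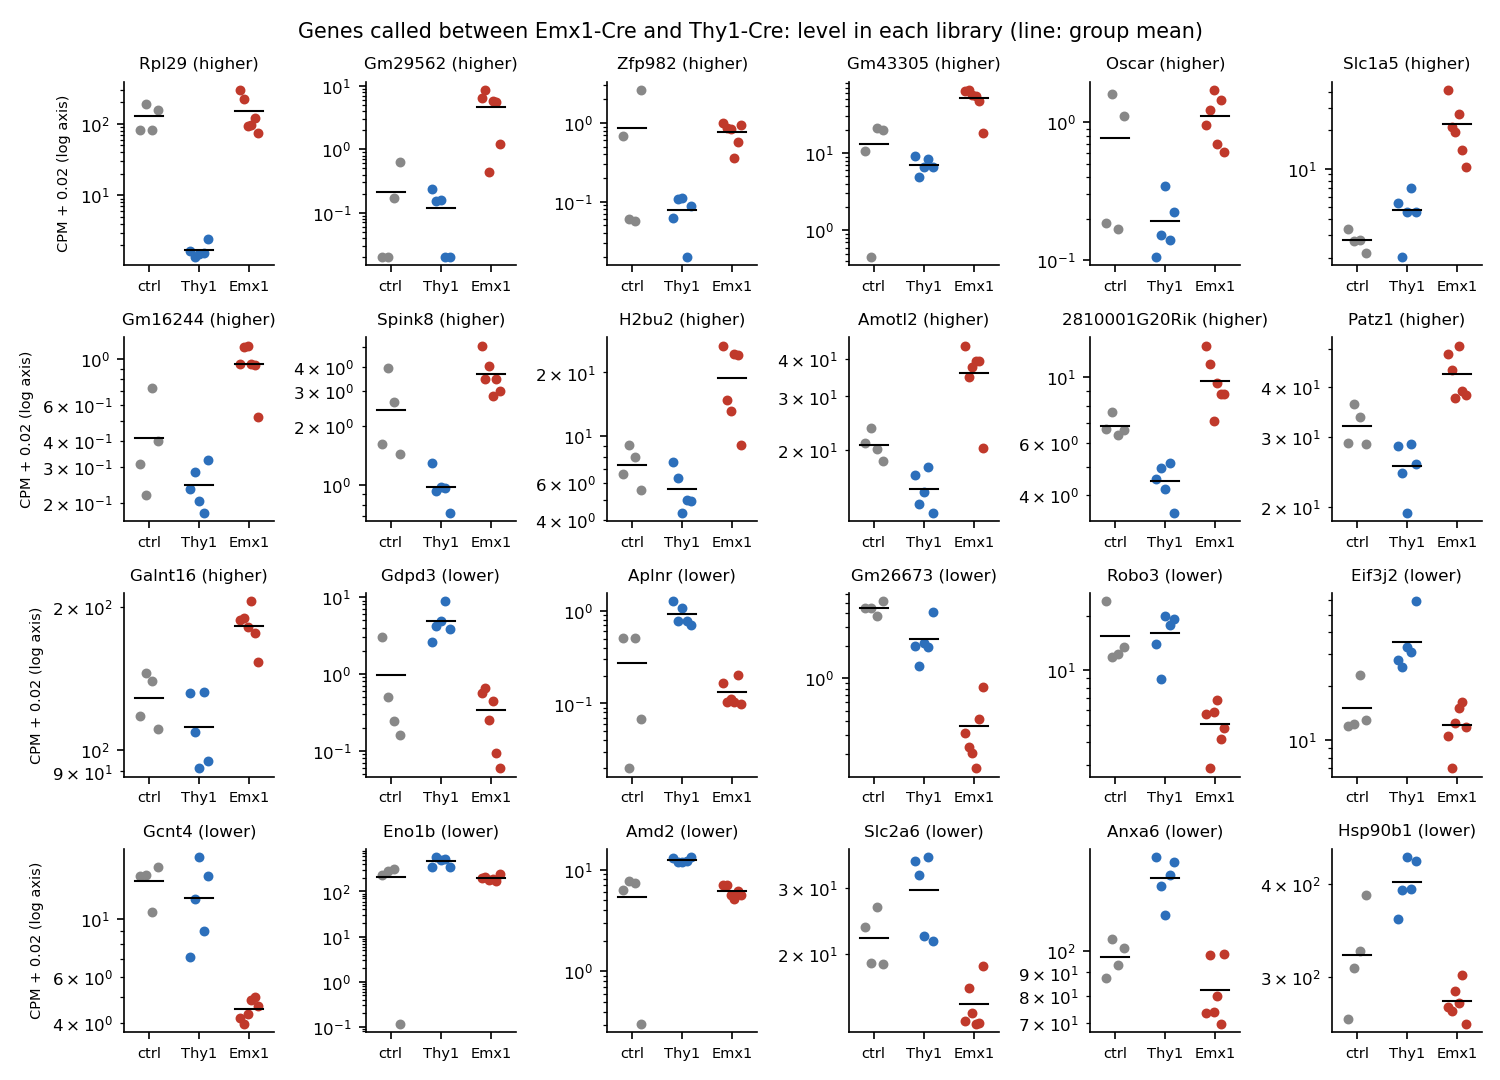
Level of each of the 24 called genes in each library, as CPM plus 0.02 on a log axis, for control (n = 4), Thy1-Cre (n = 5) and Emx1-Cre (n = 6), with the line at the group mean and the direction of Emx1-Cre against Thy1-Cre in brackets. In every panel the Emx1-Cre and Thy1-Cre points are apart, while the control points of Oscar and Zfp982 are spread over both.

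The largest difference was in Rpl29, a protein of the large ribosomal subunit (GRCm38 chromosome 9, 106429454 to 106431568, plus strand). It stood at 1.62, 1.36, 1.47, 1.55 and 2.40 CPM with Thy1-Cre, at 74 to 300.0 CPM (median 109) with Emx1-Cre and at 81.2, 193, 83.5 and 156 CPM in the controls. All 5 Thy1-Cre libraries were thus far below both other groups, by a log2 difference of 6.49 ± 0.46 from Emx1-Cre (adjusted p = 0.000115, edgeR). Rpl29 has many near-identical copies: 18 other genes in the table share 20% or more of the 31-base words of its longest transcript. One of them, Gm13841, was at 33.6 ± 27 CPM (SD, n = 6) with Emx1-Cre and 92.2 ± 15.4 CPM (n = 5) with Thy1-Cre (-1.45 ± 1.01, adjusted p = 0.424, edgeR). Summed over Rpl29 and these copies, the level was 77.2 to 110.4 CPM with Thy1-Cre and 114 to 301 CPM with Emx1-Cre, against 124 to 194 CPM in controls. The split of reads between Rpl29 and its copies is therefore uncertain.

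Of the other called genes 5 also share 20% or more of these words with another gene, so that reads can be split between the copies: Eif3j2, Eno1b, Amd2, H2bu2 and Gm29562. Eif3j2 (chromosome 18), a copy of the gene for a subunit of translation initiation factor 3, stood at 27.8, 25.7, 32.9, 30.8 and 59.3 CPM with Thy1-Cre and 6.94 to 16.3 CPM (median 12.1) with Emx1-Cre (-1.53 ± 0.25, adjusted p = 0.0440, edgeR). Its partner Eif3j1 was at 27 ± 7.18 CPM (SD, n = 5) and 47.5 ± 4.98 CPM (n = 6), and the sum of both was 62.3 ± 8.53 CPM and 59.7 ± 6.40 CPM, against 57.7 ± 3.21 CPM in controls (n = 4). The pair as a whole thus overlapped between the groups. Eno1b (chromosome 18), a copy of the glycolytic enolase gene, was at 356, 579, 499, 539 and 347 CPM with Thy1-Cre and 171 to 239.6 CPM (median 189.9) with Emx1-Cre (-1.23 ± 0.15, adjusted p = 0.00984, edgeR). With its 3 copies the sum was 764 to 915 CPM against 522 to 771 CPM, which overlap, and Eno1 itself was at 295 ± 26.8 and 418 ± 65 CPM (SD, n = 5 and 6). Amd2, a copy of the gene for S-adenosylmethionine decarboxylase in polyamine synthesis, was at 13, 11.8, 11.8, 12.2 and 13.2 CPM against 5.07 to 7.10 CPM (median 5.87) (-1.02 ± 0.14, adjusted p = 0.0187, edgeR), and its sum with 3 copies was 119.9 to 166 CPM against 73.6 to 165 CPM. In 1 control library Eno1b was at 0.0948 CPM and Amd2 at 0.284 CPM, while the other 3 controls held 231 to 316 CPM and 6.33 to 7.68 CPM. With the spread shared over all 30 libraries neither gene was called between the drivers. Eno1b was at -1.24 ± 0.98 and Amd2 at -1.02 ± 0.44 there (adjusted p = 0.393 and 0.107, edgeR).

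**Figure D3:**
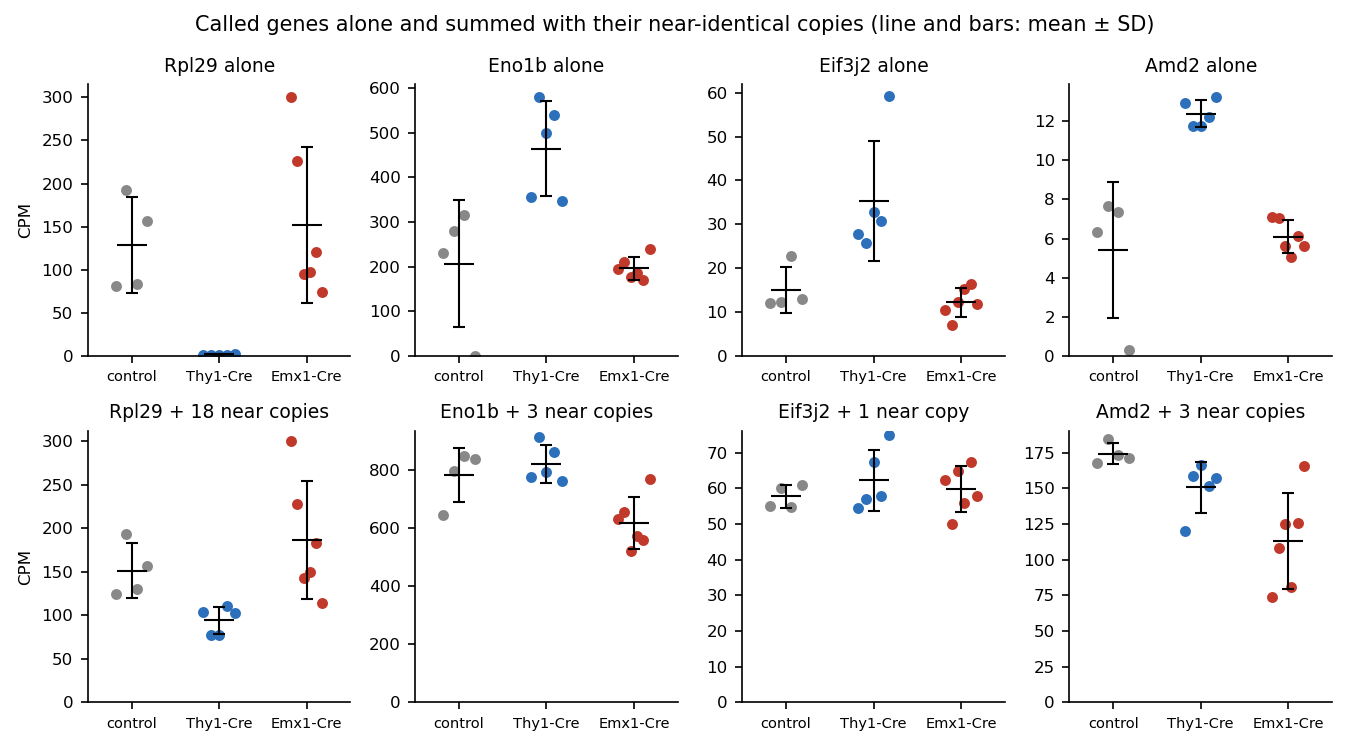
Levels in CPM of 4 called genes alone (upper row) and summed with the genes that share 20% or more of their 31-base words (lower row) in each library, with mean ± SD for control (n = 4), Thy1-Cre (n = 5) and Emx1-Cre (n = 6). The ratio between the drivers is smaller in the sums than in each gene alone, and in the sums Eif3j2 overlaps (62.3 ± 8.53 CPM and 59.7 ± 6.40 CPM).

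Among the remaining genes that were higher with Emx1-Cre, transporters, scaffolds and enzymes stood beside unnamed transcripts. Slc1a5, a transporter of neutral amino acids such as glutamine, stood at 10.3 to 41.4 CPM (median 20.3) with Emx1-Cre, 5.34, 2.02, 4.55, 7.09 and 4.59 CPM with Thy1-Cre and 3.33, 2.69, 2.75 and 2.18 CPM in controls, so that the deletion groups lay apart and Emx1-Cre above all controls (2.24 ± 0.38, adjusted p = 0.0471, edgeR). Amotl2, a scaffold of cell junctions of the angiomotin family, was at 20.3 to 44.2 CPM (median 38.4) against 16.5, 13.2, 14.5, 17.5 and 12.4 CPM (1.28 ± 0.18, adjusted p = 0.0237, edgeR), and its lowest Emx1-Cre value came from replicate 6. The controls, at 21.1, 23.5, 20.1 and 18.3 CPM, were above all Thy1-Cre libraries. H2bu2, a histone H2B gene, was at 9.02 to 26.8 CPM (median 19.6) against 7.48, 6.28, 4.32, 4.98 and 4.89 CPM (1.75 ± 0.29, adjusted p = 0.0440), and its sum with the near-copy Hist3h2bb-ps was 18.9 ± 7.42 CPM against 5.61 ± 1.30 CPM (SD, n = 6 and 5). Galnt16, an enzyme that starts O-linked glycans, differed by 0.71 ± 0.12 and the zinc-finger regulator Patz1 by 0.78 ± 0.13 (adjusted p = 0.0493 and 0.0471). Spink8, a protease inhibitor of the Kazal type, and Oscar, an immunoglobulin-like receptor, were low in all libraries, at 3.63 ± 0.824 and 1.09 ± 0.437 CPM with Emx1-Cre (SD, n = 6) and 0.967 ± 0.205 and 0.172 ± 0.0939 CPM with Thy1-Cre (n = 5).

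Transcripts without a known function made up a further part of the genes higher with Emx1-Cre. Gm43305, a processed transcript (chromosome 14, 54292443 to 54297456, minus strand), stood at 18 to 65.5 CPM (median 56.2) with Emx1-Cre, 9.19, 4.88, 6.48, 8.29 and 6.51 CPM with Thy1-Cre and 10.7, 0.435, 20.7 and 19.9 CPM in controls. The lowest Emx1-Cre library, replicate 6, was still above all Thy1-Cre libraries (2.86 ± 0.31, adjusted p = 0.00438, edgeR). Gm29562, a long intergenic RNA, was at 0.413 to 8.74 CPM (median 5.81) against 0.214, 0.132, 0.138, 0 and 0 CPM and 0, 0, 0.148 and 0.616 CPM in controls. One control thus lay inside the Emx1-Cre range. Gm29562 shares 20% or more of its 31-base words with 9 other genes of the table, and its sum with them, 238 to 360.2 CPM against 202 to 330.2 CPM, overlapped, so its own level is uncertain. The antisense transcript 2810001G20Rik was at 9.68 ± 1.99 CPM (SD, n = 6) against 4.44 ± 0.646 CPM (n = 5). Zfp982, a zinc-finger gene, and Gm16244 stayed under 1 CPM on average in both groups. Gm16244, Galnt16, Patz1 and the chaperone gene Hsp90b1 each overlap an annotated gene on the opposite strand, so part of their reads may belong to it. With Emx1-Cre and Thy1-Cre these partners were at 9.78 and 7.24 CPM (Gm16244), 3.05 and 1.31 CPM (Galnt16), 1.22 and 1.51 CPM (Patz1) and 2.10 and 1.98 CPM (Hsp90b1). Gdpd3 and Gcnt4, described below, also overlap genes on the opposite strand, which did not pass the filter for testing.

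The genes that were lower with Emx1-Cre included receptors, a chaperone and enzymes of lipids and glycans. Robo3, an axon guidance receptor, stood at 2.84 to 6.84 CPM (median 5.23) with Emx1-Cre, 13.9, 8.96, 20.002, 17.8 and 19.2 CPM with Thy1-Cre and 24, 11.8, 12.3 and 13.3 CPM in controls, so that the Emx1-Cre libraries lay below both other groups (-1.66 ± 0.25, adjusted p = 0.0318, edgeR). The same order held for Gcnt4, a glucosaminyltransferase of O-linked glycans, at 3.93 to 5.01 CPM (median 4.47), 7.14, 11.9, 17.2, 8.96 and 14.6 CPM and 14.5, 14.8, 10.6 and 15.7 CPM (-1.41 ± 0.22, adjusted p = 0.0368). It also held for Gm26673 (-2.71 ± 0.47, adjusted p = 0.0493), which is annotated antisense to the potassium channel gene Kcna6. Kcna6 itself was at 63.4 ± 24.2 CPM (SD, n = 6) against 115 ± 13.3 CPM (n = 5; adjusted p = 0.110, edgeR), and as the sources used here do not name the strand setting, the reads of the pair cannot be told apart. In Anxa6 and Aplnr all Thy1-Cre libraries stood above both other groups. Anxa6, a calcium-dependent membrane-binding protein, was at 159, 138, 119.5, 146 and 155 CPM with Thy1-Cre, 69.7 to 98.7 CPM (median 77) with Emx1-Cre and 87.4, 106, 93.5 and 101 CPM in controls (-0.80 ± 0.12, adjusted p = 0.0318, edgeR). Aplnr, the apelin receptor, was under 2 CPM in all libraries, at 1.24, 0.747, 1.06, 0.757 and 0.675 CPM against 0.0778 to 0.183 CPM (median 0.0881) (-2.94 ± 0.35, adjusted p = 0.00907). Gdpd3, a lysophospholipase D, was at 2.57, 4.22, 4.78, 8.77 and 3.81 CPM against 0.0389 to 0.627 CPM (median 0.326), with 1 of 4 controls at 2.96 CPM inside the Thy1-Cre range. Slc2a6, of the glucose transporter family, was at 29.5 ± 7.02 CPM (SD, n = 5) against 14.8 ± 2.26 CPM (n = 6), with controls at 23.7, 18.9, 26.7 and 18.8 CPM.

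Set beside the controls in the fit of all 30 libraries, the 24 genes did not move in a single way (both comparisons share the 4 control libraries; of all 17796 genes, 20.4% were called higher and 19.1% lower with Emx1-Cre, and 10.5% and 7.56% with Thy1-Cre). Slc1a5 was changed with Emx1-Cre by 3.01 ± 0.48 (adjusted p = 5.03e-05) and had a value of 0.78 ± 0.45 (adjusted p = 0.238) with Thy1-Cre. Rpl29 had a value of 0.24 ± 1.30 (adjusted p = 0.896) with Emx1-Cre and -6.24 ± 1.69 (adjusted p = 0.0126) with Thy1-Cre. Amotl2 was called in opposite directions, at 0.79 ± 0.15 (adjusted p = 0.000314) and -0.48 ± 0.16 (adjusted p = 0.0300), and so was the antisense transcript 2810001G20Rik, at 0.50 ± 0.16 (adjusted p = 0.0150) and -0.62 ± 0.17 (adjusted p = 0.0102). For Anxa6 the values were -0.24 ± 0.13 (adjusted p = 0.136) and 0.56 ± 0.13 (adjusted p = 0.00426), and for Robo3 -1.61 ± 0.32 (adjusted p = 0.000377) and 0.06 ± 0.33 (adjusted p = 0.927), all by edgeR.

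Genes of cholesterol synthesis mostly had lower estimates with Emx1-Cre, but none passed edgeR's test in the 11 libraries. The list holds enzymes and regulators of the sterol pathway, which neurons and glia use to make sterols in the brain. Of its 17 members 16 had a lower estimate, with a median of -0.67 against -0.01 over all tested genes. edgeR called 0, with the smallest adjusted p at 0.0823, while 12 had an unadjusted p under 0.05, all lower (9.45% of all genes). For 8 members the groups did not overlap, all lower (1.13% of all genes). DESeq2 called 10 lower (2.16% of all genes), voom 6 (2.22%) and edgeR over 30 libraries 12 (8.05%). In females alone edgeR called 2 lower (2.42%), with sex as a covariate 0 (0.0914%) and without replicate 6 of Emx1-Cre 8 (4.47%). None of these fits called a member higher.

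Sc5d, the lathosterol desaturase, had the smallest p, at 32.5 to 61.8 CPM (median 44) with Emx1-Cre, 62.8, 79.6, 77.7, 68.2 and 68.8 CPM with Thy1-Cre and 63.2, 59.3, 57.8 and 70.2 CPM in controls (-0.67 ± 0.15, adjusted p = 0.0823, edgeR). Its Thy1-Cre libraries lay above all Emx1-Cre libraries. Idi1, the isopentenyl diphosphate isomerase, stood at 23.7 to 47.3 CPM (median 33.5) against 46.3, 60.4, 64.5, 49.6 and 58.1 CPM and 54, 57.9, 50.2 and 53.8 CPM in controls (-0.75 ± 0.17, adjusted p = 0.0891), with an overlap between the groups. Nsdhl, a sterol dehydrogenase encoded on the X chromosome, was at 18.5 ± 4.61 against 31.7 ± 5.29 CPM and Mvd, the mevalonate pyrophosphate decarboxylase, at 11.8 ± 3.00 against 21.2 ± 5.29 CPM, both with adjusted p = 0.0988 in edgeR's test (SD, n = 6 and 5). Sqle, the squalene epoxidase, and Hmgcs1, the cytosolic HMG-CoA synthase, had estimates of -0.81 ± 0.21 and -0.65 ± 0.23 (adjusted p = 0.106 and 0.165). Insig1 (0.01 ± 0.21) and Lss (-0.04 ± 0.13) had estimates near 0. In single libraries the sterol genes had a mean log2 CPM of 6.00, 6.14, 6.07, 5.75 and 5.85 with Thy1-Cre and 4.90 to 5.63 with Emx1-Cre, which do not overlap, and 5.67 to 5.86 in controls. In the fit of 30 libraries 8 of the 17 members were called lower in Emx1-Cre than in controls (19.1% of all genes) and 0 higher, and 2 were called higher with Thy1-Cre (10.5% of all genes) and 0 lower.

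The promoters of these genes and of the chaperone genes below are shown because most members of each list had estimates of one sign. RefSeq start sites on build GRCm38.p6 were at hand for 11 of the 17 sterol genes, and the 250 bases before each start were searched on both strands. The box CCAAT, bound by NF-Y, occurred in all 11, against 37.5% of 27025 genes with a promoter and 40.1% of the 12208 tested ones. The sterol response element TCACCCCAC occurred in 1 of the 11 (9.09%), Hmgcs1, against 0.555% of all and 0.631% of the tested ones. The motifs do not overlap in their letters. A match is a description of the sequence and not a site shown to be bound. The sequences of Hmgcs1 (chr13:119690169-119690267, plus strand, response element in capitals) and Idi1 (chr13:8885516-8885605, plus strand, boxes in capitals, here in reverse orientation) follow.
Hmgcs1: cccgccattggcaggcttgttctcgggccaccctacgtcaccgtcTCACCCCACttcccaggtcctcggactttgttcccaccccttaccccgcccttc
Idi1: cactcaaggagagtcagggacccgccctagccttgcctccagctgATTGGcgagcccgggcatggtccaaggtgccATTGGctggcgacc

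**Figure D4:**
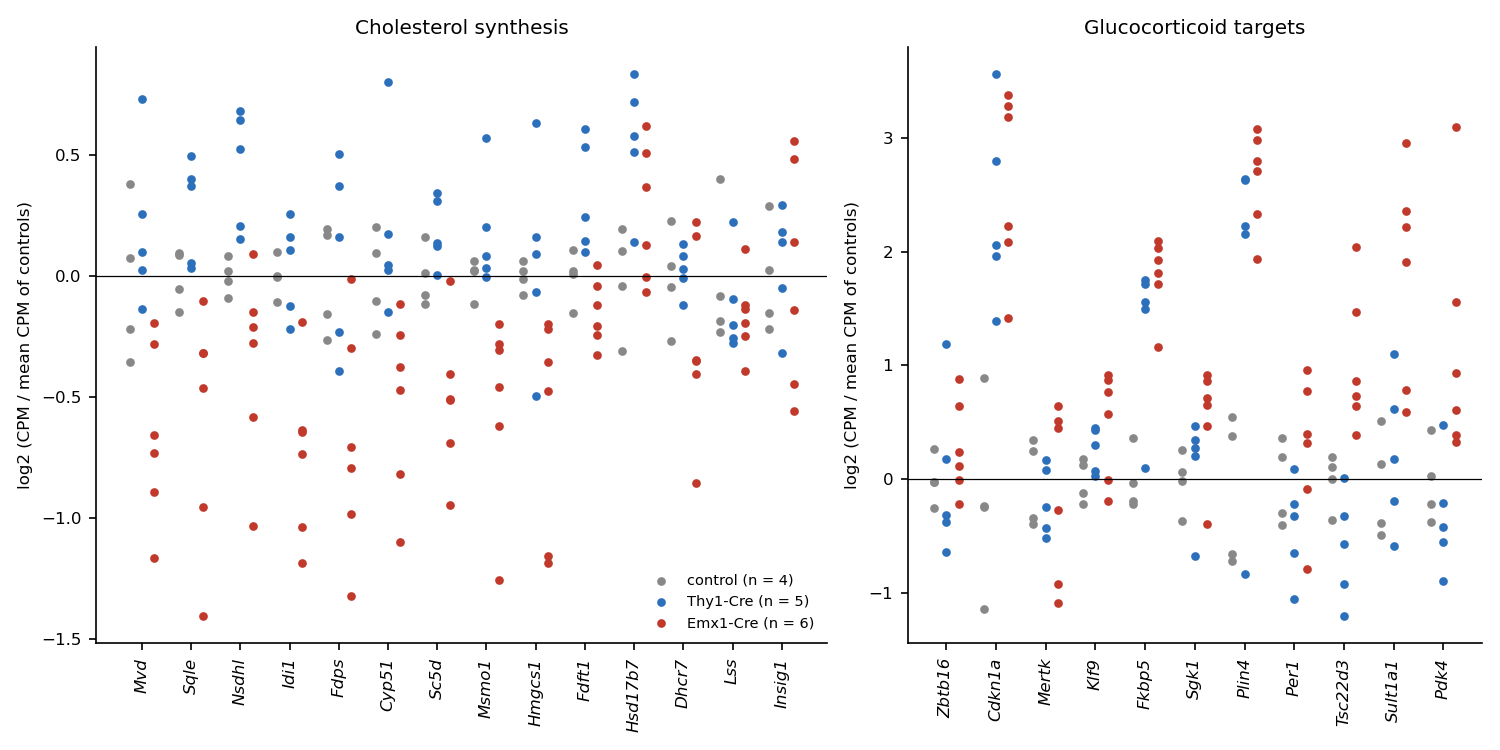
Level of 14 of the 17 members of the cholesterol synthesis list (left) and of each member of the glucocorticoid target list (right, 11 genes) in each library, as log2 of CPM over the mean CPM of the 4 controls, which is 0. Most sterol genes lie below 0 with Emx1-Cre and near or above it with Thy1-Cre, and in the right panel all Emx1-Cre points of Tsc22d3 lie above its Thy1-Cre points.

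Hsp90b1 was the called gene among the chaperones of the endoplasmic reticulum, which fold secreted proteins and are raised by the unfolded protein response. Hsp90b1, the chaperone GRP94, stood at 259 to 302 CPM (median 275) with Emx1-Cre and 359, 393, 435, 394 and 429.7 CPM with Thy1-Cre, with 263, 308, 325 and 387 CPM in controls. Its difference of -0.53 ± 0.09 passed the test narrowly (adjusted p = 0.0471, edgeR), and the call was lost without any single library other than replicate 6 of Emx1-Cre, at an adjusted p of up to 0.141. It was the only called member of the 14 genes of the unfolded protein response, whose median was -0.46 (-0.25 without replicate 3 of Thy1-Cre). With Hsp90b1, 7 members had a lower estimate at an unadjusted p under 0.05 (9.45% of all genes) and 1, the stress-induced pseudokinase Trib3, a higher one (10.7% of all genes). Sdf2l1, a cofactor of the chaperone BiP, was at 8.61 ± 2.97 CPM (SD, n = 6) against 17.1 ± 4.58 CPM (n = 5; adjusted p = 0.100, edgeR), the lectin chaperone Calr at 299 ± 58.4 against 452 ± 69.99 CPM and the disulfide isomerase Pdia4 at 32.1 ± 9.19 against 50.2 ± 12.3 CPM. Hspa5, which encodes BiP, was at 225 to 333 CPM (median 240.4) against 233, 321, 437, 331 and 395 CPM with an overlap (-0.39 ± 0.17, adjusted p = 0.219). The stress transcription factor Ddit3 had an estimate of -0.05 ± 0.23. DESeq2 called 3 members lower (2.16% of all genes), voom 2 (2.22%), edgeR over 30 libraries 6 (8.05%) and with sex as a covariate 0 (0.0914%), with 0 higher in each. Against the controls, which both groups share, 3 of the 14 were called higher with Emx1-Cre (20.4% of all genes) and 3 with Thy1-Cre (10.5% of all genes), and 0 lower.

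The endoplasmic reticulum stress element (CCAAT and CCACG with 9 bases of any kind between them) was found in the same window of 3 of the 14 members (21.4%), Calr, Hsp90b1 and Hspa5. It occurred in 0.13% of all genes with a promoter and in 0.147% of the tested ones. It contains the CCAAT box, which 10 of the 14 members held (71.4%, against 40.1% of the tested genes with a promoter). Hsp90b1 holds the element on both strands and also the sterol response element. The fixed letters of the element are in capitals in Hsp90b1 (chr10:86705488-86705694, minus strand) and Hspa5 (chr2:34771980-34772088, plus strand).
Hsp90b1: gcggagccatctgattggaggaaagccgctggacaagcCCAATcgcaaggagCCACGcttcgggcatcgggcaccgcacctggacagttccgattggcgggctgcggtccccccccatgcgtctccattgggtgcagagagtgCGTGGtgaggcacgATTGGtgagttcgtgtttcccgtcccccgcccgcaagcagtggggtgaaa
Hspa5: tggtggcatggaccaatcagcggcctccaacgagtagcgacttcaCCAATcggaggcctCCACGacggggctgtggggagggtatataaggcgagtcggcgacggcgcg

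Targets of the glucocorticoid receptor lay in the other direction. All 11 members of this list had a higher estimate with Emx1-Cre, with a median of 0.43 (0.26 without replicate 2 of Thy1-Cre), and edgeR called 0. An unadjusted p under 0.05 was reached by 4, all higher (10.7% of all genes). DESeq2 called 3 (3.39% of all genes), voom 1 (1.94%), edgeR over 30 libraries 4 (7.89%) and edgeR in females alone 1 (2.19%), all higher. With sex as a covariate edgeR called 0, and 4 members were higher and 1 lower at an unadjusted p under 0.05 (3413 of 16407 genes in both directions). Tsc22d3, which encodes the glucocorticoid-induced leucine zipper GILZ, stood at 168 to 527 CPM (median 223) with Emx1-Cre, 102, 67.6, 85.9, 129 and 55.4 CPM with Thy1-Cre and 128, 146, 99.4 and 138 CPM in controls. The deletion groups did not overlap (1.69 ± 0.32, adjusted p = 0.0631, edgeR). Sult1a1, a sulfotransferase, was at 36.3 ± 20.7 CPM (SD, n = 6) against 11.3 ± 5.22 CPM (n = 5) and the pyruvate dehydrogenase kinase Pdk4 at 58.7 ± 57 against 17 ± 6.61 CPM, and replicate 1 of Emx1-Cre held the highest value of both (172 CPM for Pdk4). Per1, a clock gene that also responds to glucocorticoids, was at 151 ± 58.4 against 90.1 ± 26 CPM. Other targets differed less: Fkbp5, a co-chaperone of the receptor, was at 95.9 to 183 CPM (median 157) and 141, 45.9, 126, 145 and 121 CPM, both groups mostly above the controls at 42, 37.6, 36.9 and 55.3 CPM, with an estimate of 0.39 ± 0.26 (adjusted p = 0.392). In single libraries the 11 genes had a mean log2 CPM of 6.22 to 7.23 with Emx1-Cre and 6.14, 5.27, 6.25, 6.13 and 5.89 with Thy1-Cre, overlapping through replicate 6 of Emx1-Cre and replicate 3 of Thy1-Cre.

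Of 17 p53 targets 1 stood apart between the drivers, higher with Emx1-Cre, and of 15 clock genes 0 did. Over all genes the groups did not overlap for 1.44% higher and 1.13% lower. Trp53inp1, a p53-induced regulator of autophagy and cell death, was at 24.6 to 65.3 CPM (median 34.6) with Emx1-Cre and 23.9, 12.1, 12.6, 17 and 10.4 CPM with Thy1-Cre, with no overlap (1.43 ± 0.29, adjusted p = 0.0787, edgeR). Of 17 p53 targets edgeR called 0, with an unadjusted p under 0.05 for 5 higher and 1 lower (10.7% and 9.45% of all genes). DESeq2 called 3 higher and 1 lower (3.39% and 2.16% of all genes) and voom 1 and 1 (1.94% and 2.22%). Bbc3, which encodes the death protein PUMA, was at 8.71 ± 3.89 CPM (SD, n = 6) against 4.42 ± 1.01 CPM (n = 5) and the stress sensor Sesn1 at 87.4 ± 34.7 against 50.04 ± 10.9 CPM, while the zinc-finger gene Zmat3 was at 73.2 ± 14.9 against 102 ± 8.83 CPM, with adjusted p from 0.125 to 0.144 by edgeR. Of 15 clock genes edgeR called 0, DESeq2 2 higher (3.39% of all genes) and voom 1 higher (1.94%). At an unadjusted p under 0.05 in edgeR's test there were 4, all higher (10.7% of all genes). These were Per1, the repressors Cry2 at 216 ± 58.8 against 140.2 ± 18.4 CPM and Nr1d1 at 147 ± 64.8 against 86.5 ± 19 CPM, and Ciart at 24.4 ± 13.5 against 9.83 ± 5.43 CPM. The hour of dissection is not given in the labels.

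Genes of the glial response varied widely within both groups. Of 27 tested genes of reactive astrocytes edgeR called 0, with 3 higher and 4 lower at an unadjusted p under 0.05 (10.7% and 9.45% of all genes) and a median of 0.26. DESeq2 called 1 higher and 1 lower (3.39% and 2.16% of all genes) and voom 1 higher (1.94%). Over 30 libraries edgeR called 1 higher and 4 lower (7.89% and 8.05%). The median changed sign without replicate 5 of Emx1-Cre (-0.15) and without replicate 2 of Thy1-Cre (-0.027). Against the controls, which both groups share, the median of the list was 3.45 with Emx1-Cre and 3.29 with Thy1-Cre. Within it, the membrane protein Tm4sf1 (-1.66 ± 0.50), the cytokine Lif (-2.51 ± 0.94) and the prostaglandin synthase Ptgs2 (-1.91 ± 0.78) had lower estimates, and the matrix protein Fbln5 (1.01 ± 0.31) a higher one, with adjusted p from 0.134 to 0.212 by edgeR. Tm4sf1 was at 22.5, 8.87, 59.5, 38.9 and 110.3 CPM with Thy1-Cre and 9.25 to 20.6 CPM (median 16.4) with Emx1-Cre, so that the Thy1-Cre libraries other than replicate 2 lay above all Emx1-Cre libraries. Of 25 genes of disease-associated microglia edgeR called 0 (2 higher and 4 lower at an unadjusted p under 0.05, against 10.7% and 9.45% of all genes; 0 called by DESeq2 or voom). Apoe, which encodes the main apolipoprotein of the brain, was at 811 to 4255 CPM (median 1764) with Emx1-Cre and 875, 1251, 814, 1336 and 781 CPM with Thy1-Cre (1.00 ± 0.37, adjusted p = 0.177, edgeR), with the highest values in replicates 1 and 2 of Emx1-Cre. The chemokine Ccl6 and the lipoprotein lipase Lpl had estimates of -1.24 ± 0.46 and -0.42 ± 0.14 (adjusted p = 0.175 and 0.147).

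All 6 tested genes of antigen presentation by MHC class II had lower estimates with Emx1-Cre, with a median of -0.75 (-1.26 without replicate 6 of Emx1-Cre). H2-Ab1, a chain of the class II molecule I-A, stood at 0.643 to 1.79 CPM (median 0.709) with Emx1-Cre, 2.95, 2.42, 3.13, 3.11 and 1.52 CPM with Thy1-Cre and 2.05, 2.18, 1.82 and 1.47 CPM in controls (-1.48 ± 0.33, adjusted p = 0.0863, edgeR). Only replicate 6 of Emx1-Cre overlapped with Thy1-Cre. edgeR called 0 of the 6, with 1 lower at an unadjusted p under 0.05 (9.45% of all genes). DESeq2 called 1 (2.16% of all genes), voom 3 (2.22%) and edgeR without replicate 6 of Emx1-Cre 3 (4.47%), all lower. Of 13 genes of endothelial activation edgeR called Aplnr alone, which was lower (0.067% of all genes). At an unadjusted p under 0.05, 2 were higher and 3 lower (10.7% and 9.45% of all genes). DESeq2 called 2 higher and 2 lower (3.39% and 2.16%) and voom 1 lower (2.22%). Edn1, which encodes the vasoconstrictor endothelin-1, was at 3.07 to 43.2 CPM (median 13.6) with Emx1-Cre and 4.15, 2.11, 3.82, 4.18 and 2.63 CPM with Thy1-Cre (2.56 ± 0.63, adjusted p = 0.104). The adhesion molecule Vcam1 was at 29.8 ± 4.37 CPM (SD, n = 6) against 41.8 ± 7.97 CPM (n = 5). Apln, the ligand of the apelin receptor, was at 7.21 ± 3.55 CPM (SD, n = 6) against 15 ± 7.98 CPM (n = 5) and 32.1 ± 9.03 CPM in controls (n = 4; -1.05 ± 0.38, adjusted p = 0.172).

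Genes of myelin and of neuronal excitability had mostly lower estimates with Emx1-Cre. Of 19 myelin genes edgeR called 0, with 5 lower and 1 higher at an unadjusted p under 0.05 (9.45% and 10.7% of all genes). DESeq2 called 3 lower and 1 higher (2.16% and 3.39% of all genes), voom 4 lower (2.22%) and edgeR over 30 libraries 5 lower and 1 higher (8.05% and 7.89%). The myelin list had a median of -0.41, which moved to -0.77 once sex was a covariate. That fit called 2 lower (0.0914% of all genes). In it 13 were lower and 1 higher at an unadjusted p under 0.05 (3413 of 16407 genes in both directions). Using the female libraries only, edgeR called 4 lower (2.42% of all genes), with a median of -0.75. There 12 were lower and 1 higher at an unadjusted p under 0.05 (4077 of 16786 genes in both directions). Ugt8a, which makes the myelin lipid galactosylceramide, stood at 6.48 to 20.8 CPM (median 9.08) with Emx1-Cre, 28.6, 40.8, 20.7, 43.3 and 21.8 CPM with Thy1-Cre and 48, 44, 54.1 and 59.3 CPM in controls (-1.42 ± 0.34, adjusted p = 0.100, edgeR). Ermn, a cytoskeletal protein of oligodendrocytes, was at 18.1 ± 8.57 CPM (SD, n = 6) against 37.2 ± 8.79 CPM (n = 5). Mal, a proteolipid of myelin, did not overlap in the other direction, at 141 to 283 CPM (median 172) against 131, 128, 106, 133 and 99.3 CPM (0.66 ± 0.17, adjusted p = 0.109). The mean log2 CPM of the myelin list was 5.13 to 6.14 with Emx1-Cre, 5.76 to 6.43 with Thy1-Cre and 6.66 to 6.77 in controls, and that of resting astrocyte genes 7.68 to 8.87, 7.72 to 8.63 and 7.89 to 8.43. The part of either glial type in the sterol genes, which both express, was not tested. Of 30 potassium and sodium channels edgeR called 0, and 25 had a lower estimate. At an unadjusted p under 0.05, 5 were lower (9.45% of all genes), led by Kcnh7 (-0.62 ± 0.20) and Kcnh1 (-0.64 ± 0.24) of the ether-a-go-go family and Kcnq3 (-0.43 ± 0.16) of the M current. DESeq2 called 0 of the channels, voom 2 lower (2.22% of all genes) and edgeR over 30 libraries 5 lower (8.05%). Of 33 synaptic genes edgeR called 0, and DESeq2 and voom each called 1 lower (2.16% and 2.22% of all genes). At an unadjusted p under 0.05 there were 2, both lower (9.45% of all genes): Rims1, a scaffold of the active zone, at 83.3 ± 20.2 CPM (SD, n = 6) against 124 ± 23.4 CPM (n = 5), and the vesicle priming factor Unc13a at 180.4 ± 61.8 against 266 ± 77.4 CPM.

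**Figure D5:**
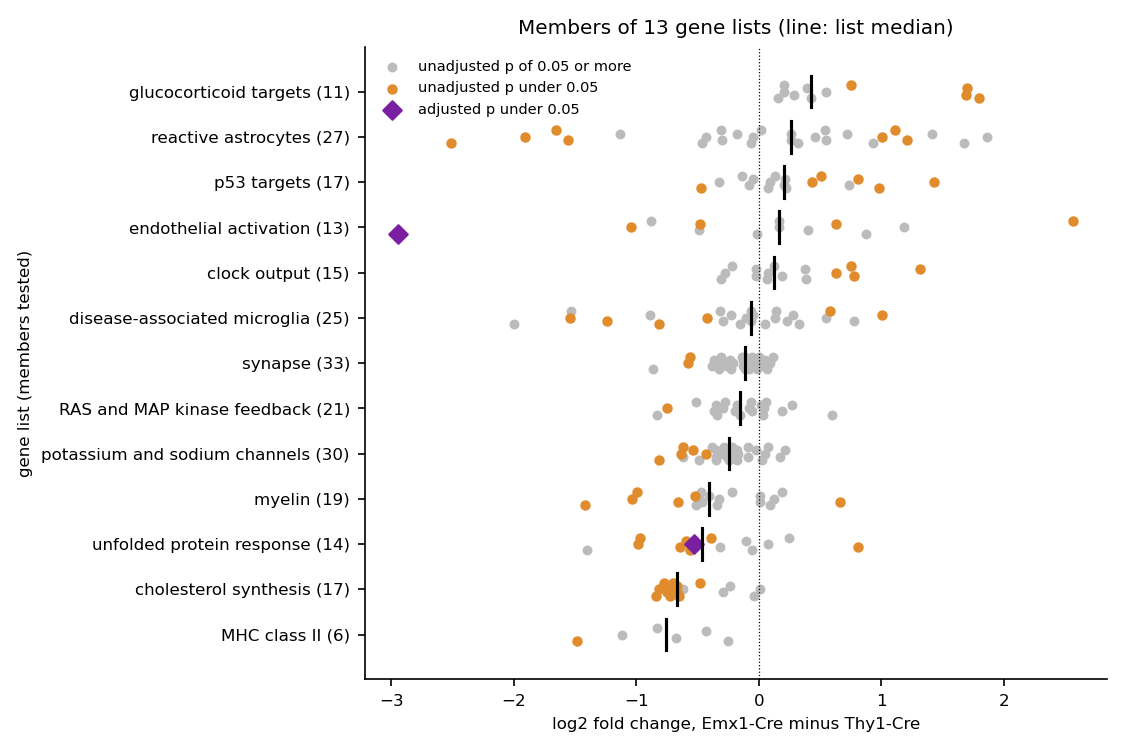
Log2 fold change of Emx1-Cre minus Thy1-Cre (x axis) for each tested member of 13 gene lists (y axis, number tested in brackets), coloured by its p in edgeR's test, with the list median as a line. Cholesterol synthesis (median -0.67) and MHC class II (-0.75) lie furthest to the left and glucocorticoid targets (0.43) furthest to the right, and only Aplnr and Hsp90b1 pass the adjusted threshold.

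Feedback genes of RAS and MAP kinase signalling, the pathway that Brap restrains, held no gene called between the drivers by edgeR. Of 21 such genes edgeR called 0 and 1, Spry4, had an unadjusted p under 0.05, lower (9.45% of all genes), with a list median of -0.16. DESeq2 and voom called 0, and edgeR over 30 libraries 1 lower (8.05% of all genes). Spry4, a Sprouty inhibitor of the pathway, was at 7.85 to 14.9 CPM (median 9.58) with Emx1-Cre and 10.5, 12.9, 33.7, 13.8 and 19.9 CPM with Thy1-Cre (-0.75 ± 0.30, adjusted p = 0.201, edgeR). The ETS factor Etv4 was at 10.2 ± 3.31 CPM (SD, n = 6) against 6.76 ± 2.24 CPM (n = 5), and Spred1 and Spred2, which hold back RAF, had estimates of -0.35 ± 0.18 and -0.27 ± 0.22. The list median changed sign without replicate 3 of Thy1-Cre (0.11), in voom (0.0091) and once sex was a covariate (0.10). In female libraries alone it was 0.12, and 2 members were higher and 0 lower at an unadjusted p under 0.05 (4077 of 16786 genes in both directions). Spry4 there had an estimate of -0.49 (adjusted p = 0.465).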

How the data were processed

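Whole cerebral cortex was profiled by bulk sequencing of polyadenylated RNA. The deposited table holds estimated counts per gene from Salmon 1.5.2 on GRCm38, per the submitters' processing notes; the sources used here name no transcript annotation, strand setting or filter. Replicates were not pooled. Estimated counts were rounded to whole numbers, and 16407 of 54418 genes passed edgeR's filterByExpr (minimum count 10, minimum total 15). The 6 Emx1-Cre and 5 Thy1-Cre libraries were fitted alone in edgeR 4.0.16 (R 4.3.3) with TMM scaling and the robust quasi-likelihood test, and genes were called at a Benjamini-Hochberg adjusted p under 0.05. The SE is the size of the log2 fold change divided by the square root of F. CPM values were scaled over all 30 libraries, log2 CPM used a prior count of 2, and values against controls came from a fit of all 30. DESeq2 1.42.0, limma 3.58.1, other scalings, filters, sample sets and covariates were tried as alternatives. The procedure was also run on counts simulated with less spread than the 11 libraries had (biological coefficient of variation 0.329). That run therefore cannot show how the test behaves at the spread of these data. Depth was 21430882 to 28720055 counts in the 15 libraries shown; intervals reflect spread between libraries and not counting error alone.

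Counts of Xist and of Y-linked genes gave the sex. The members and gene lists were chosen with earlier results of these data known. Named genes were Brap, Emx1, Thy1, up to 10 called genes per direction with a mean of 1 CPM or more in either group, and up to 4 genes of smallest p from each described list; all others were named after their values were seen. Values of 3 members of the cholesterol list are not reported singly here. Shared sequence between genes was counted as the share of 31-base words of a gene's longest transcript that occur in another gene, using GENCODE M21 transcripts, and promoters were the 250 bases before RefSeq starts on GRCm38.p6.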

Additional observations from a re-analysis of the deposited data

Results flagged for a closer look

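Within-group outliers were sought by Dixon's criterion in the controls, the Thy1-Cre and the Emx1-Cre libraries, over the genes and lists named in the text. Of 294 combinations of value and group 16 (5.44%) had 1 library far from the others, and chance alone gives about 1 in 20.

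Replicate 6 of Emx1-Cre stood apart in 4 of these. It had the highest H2-Ab1 of its group (1.79 CPM) and the lowest Gm16244 (0.505 CPM), Etv4 (3.73 CPM) and mean log2 CPM of the reactive astrocyte list (3.02). In the same group replicate 1 had the highest Pdk4 (172 CPM), replicate 2 the highest Lpl (41.3 CPM) and replicate 4 the lowest Ddit3 (9.41 CPM).

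Among the Thy1-Cre libraries replicate 5 had the highest Rpl29 (2.40 CPM) and Eif3j2 (59.3 CPM) and the lowest Lamp5 (52.0 CPM). Replicate 2 had the lowest Fkbp5 (45.9 CPM). Among the controls replicate 1 had the highest Gdpd3 (2.96 CPM) and Robo3 (24.0 CPM), replicate 2 the highest Emx1 (14.9 CPM), replicate 3 the highest Eif3j2 (22.9 CPM) and replicate 4, in which Eno1b was at 0.0948 CPM, the highest Eno1 (836 CPM).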

How the results depend on the processing

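All 24 called genes kept their direction under every alternative that tested them, while the counts of calls moved. Counts are given as genes higher, genes lower and members of the 45 lists called (13, 11 and 3 as reported). RLE scaling gave 12, 9 and 2, and sex as a covariate 13, 15 and 4. With no filter edgeR called 30 and 28 genes, and with a stricter filter (1 CPM in 5 libraries) 4, 6 and 1. DESeq2 gave 557, 355 and 48, voom with sample quality weights 318, 365 and 33, edgeR over all 30 libraries 1404, 1432 and 97, over the 20 libraries of 3 months 925, 892 and 70, and in females alone 368, 406 and 39. Without both Emx1-Cre replicate 6 and Thy1-Cre replicate 2 it gave 278, 295 and 26. Leaving out 1 library at a time gave 2 to 705 higher, 1 to 727 lower and 1 to 51 list members, the top of each range coming from Emx1-Cre replicate 6; the other libraries gave 2 to 5, 1 to 9 and 1 to 2. The cause was not tested. With the replicate number as a block 603, 713 and 60 were called. Correlations of same-numbered libraries lay between -0.28 and 0.41 and 1 of 5 numbers matched best with itself. So few correlations cannot show whether the numbers pair the samples, and the reported fit treats them as unpaired. The small estimate of Emx1 turned to 0.038 with sex as a covariate, 0.058 in females and 0.032 without both libraries, and that of Spred2 to 0.051 and 0.070 in the first 2 of these. Depth limits genes near 1 CPM and below, such as Aplnr and Zfp982, which rest on few reads.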

Other observations

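Beyond the lists described in the results, 32 further lists of cell types, compartments and signalling were followed, and edgeR called 1 of their members between the drivers, Spink8, which was listed as a hippocampal marker. In cellular respiration 36 of 38 genes of oxidative phosphorylation had a higher estimate with Emx1-Cre, with a median of 0.17, and 5 had an unadjusted p under 0.05, all higher (10.7% of all genes). The mean log2 CPM of that list was 6.81 to 7.26 with Emx1-Cre and 6.66 to 7.01 with Thy1-Cre, against 6.61 to 6.91 in controls. Uqcrfs1, the iron-sulfur subunit of complex III, had the smallest p of them (0.46 ± 0.15, adjusted p = 0.144, edgeR). Of 31 proteasome genes 27 had a higher estimate (median 0.16), as did 19 of 22 lysosomal genes (median 0.26). The medians of these 3 lists were small, set beside -0.01 over all genes. Without replicate 3 of Thy1-Cre the median was 0.10 for oxidative phosphorylation and 0.10 for the proteasome. That of the lysosomal genes was 0.084 without replicate 2 of Emx1-Cre and changed sign in females alone (-0.018) and once sex was a covariate (-0.03).

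Neuronal and regional lists had estimates in both directions. All 13 striatal genes had a lower estimate with Emx1-Cre (median -0.44), with 1 at an unadjusted p under 0.05, lower (9.45% of all genes), and the median was -0.29 without replicate 4 of Emx1-Cre and -0.27 without replicate 1 of Thy1-Cre. Of 14 upper-layer genes 12 had a lower estimate (median -0.17), led by the layer marker Lamp5 (-0.50 ± 0.15, adjusted p = 0.125, edgeR), while 16 deep-layer genes had a median near 0, whose sign varied with the library left out, and 4 with a higher estimate at an unadjusted p under 0.05 (10.7% of all genes). Resting astrocyte genes had a median of 0.49, with a higher estimate in 12 of 16, but the median was -0.002 with sex as a covariate, 0.016 in females alone and 0.28 without replicate 1 of Emx1-Cre. Within the list Mlc1, a membrane protein of astrocyte endfeet, differed by 0.57 ± 0.22 (adjusted p = 0.186). The 18 genes of resting microglia had a median of -0.16 with 0 called by edgeR. In females alone their median was -0.89 and 3 were called lower (2.42% of all genes), and with sex as a covariate it was -0.90 with 0 called. Of 33 interferon-stimulated genes 24 had a higher estimate (median 0.40), with 1 at an unadjusted p under 0.05, higher (10.7% of all genes). This direction rested on replicate 1 of Emx1-Cre: without it the median was -0.95. In that fit 0 members were higher and 7 lower in edgeR's test at an unadjusted p under 0.05. Over all genes 2392 reached it in both directions. The median was also negative in females alone (-1.13), with sex as a covariate (-1.14) and with voom (-0.49).

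Chosen after their values were seen, the arrestin-domain genes Txnip and Arrdc3, whose products restrain glucose uptake and receptor signalling, lay just outside the threshold. Arrdc3 stood at 53.9 to 123 CPM (median 105) with Emx1-Cre, 39.8, 31.5, 31.1, 48.5 and 47.2 CPM with Thy1-Cre and 59.8, 55.9, 46.2 and 56.3 CPM in controls (1.25 ± 0.22, adjusted p = 0.0530, edgeR), with no overlap between the drivers. Txnip stood at 50.9 to 445 CPM (median 169) with Emx1-Cre, 38.1, 16.3, 17.2, 53.1 and 19 CPM with Thy1-Cre and 36.3, 30.7, 16.9 and 30.5 CPM in controls (2.89 ± 0.53, adjusted p = 0.0631), and the drivers overlapped. Of the 24 called genes 5 lie on chromosome 9, which held 953 of the tested genes, 4 on chromosome 11 (1267) and 3 on chromosome 7 (1266). Over all 16407 tested genes 0.146% were called. Chromosome 9 is named because its count was the largest, and an effect of position was not tested.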
